A study of Arabidopsis thaliana with 12 samples.

Results

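The genes described here are 7 dawn-phased components of the Arabidopsis circadian clock: LHY (AT1G01060), CCA1 (AT2G46830), RVE1 (AT5G17300), RVE8 (AT3G09600), LNK1 (AT5G64170), LNK2 (AT3G54500) and LNK4 (AT5G06980). They were picked by locus from the deposited tables with their values known, as clock genes listed in at least 1 table. All 7 were found, among 2424 genes listed in 1 or more of 3 tables. All 7 were listed as lower in MYB2-SRDX roots, 3 of them were listed as higher in MYB2-OE roots, and none was listed in the LBD29-OE table.

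RNA-seq was made from Arabidopsis thaliana roots, taken from seedlings that had grown in the dark on 1/2 MS medium to an age of 8 days, with 12 samples in 4 genotypes of 3 each. MYB2-SRDX plants carry MYB2, a MYB transcription factor known from dehydration and abscisic acid responses, fused to the SRDX repression domain (Pro35S:MYB2-SRDX), which the labels call a dominant negative. MYB2-OE plants overexpress MYB2 (Pro35S:MYB2). LBD29-OE plants carry Pro35S:LBD29-6Gly, a construct of LBD29, a LOB-domain factor of lateral root formation. Col is the Col-0 wild type. The viral 35S promoter is active in most cells of the plant, so none of the transgenes was limited to one root cell type, and each construct was deposited as 1 line. The hour of harvest is not given in the sources used here, and its part in the levels below was not tested.

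In the plant clock, LHY and CCA1 are closely related single-MYB-repeat factors that accumulate around dawn and repress genes of the evening. The REVEILLE (RVE) proteins share their MYB repeat; RVE8 activates evening genes, and RVE1 is known in seedlings for linking the clock to auxin synthesis. The LNK proteins do not bind DNA themselves and act as partners of the RVE and LHY/CCA1 group. The pseudo-response regulators (PRR) in turn hold down the dawn genes.

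Each table compared 1 line with Col and held only genes that the authors had called, at least 2-fold apart by their own log2 value (the smallest absolute log2 value listed was 1.00). Values are FPKM (fragments per kilobase, scaled to library size), which take gene length into account, so that levels of different genes can be set side by side. A gene missing from a table has no FPKM for that line. The Col values were the same libraries in all 3 tables, so that comparisons of different lines with Col share their controls. Nothing in the labels says that the 3 libraries of a genotype came from separate cultures, so the SDs below measure the spread between these libraries, which may be technical. In whole roots, fewer cells that express a gene and less of its RNA per cell cannot be told apart.

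The transgenes were read in every library of their lines. The MYB2 level was 505 ± 52.0 FPKM in MYB2-SRDX, 532 ± 138 FPKM in MYB2-OE and 0.693 ± 0.280 FPKM in Col, and LBD29 averaged 546 ± 63.8 FPKM in LBD29-OE and 2.89 ± 0.295 FPKM in Col (SD, n = 3 each). Some libraries stood apart. LBD29 was at 109 FPKM in MYB2-OE replicate 2, against 1.82 and 1.93 FPKM in the other MYB2-OE replicates. MYB2 was lowest in that same replicate, at 374.92 FPKM, against 636.19 and 584.95 FPKM in the others. Of the MYB2-SRDX libraries, which are named here by the digit their column ends in, library 1 held 3.98 FPKM summed over 3 seed storage genes, which were all at 0 in libraries 2 and 3 and summed to at most 0.05 FPKM in Col. Of 9 green-tissue markers, 3 were listed in that table, RBCS1B and RBCS2B as higher and LHCB2.1 as lower. They summed to 26.03, 1.59 and 1.19 FPKM in MYB2-SRDX libraries 1, 2 and 3, against 6.02 to 9.21 FPKM in Col. RBCS1B and RBCS2B were highest in library 1, at 15.73 and 9.17 FPKM, while LHCB2.1 was below Col in all 3 libraries. Of 5 green-tissue markers in the MYB2-OE table, LHCB2.1 was listed as higher and the other 4 (CAB3, RBCS1B, RBCS2B and RBCS3B) as lower. Their sum, in which these directions offset each other, was 11.27 to 14.79 FPKM in MYB2-OE and 10.03 to 14.17 FPKM in Col. LBD29-OE replicate 2 stood apart in its sum of green-tissue markers. The 7 listed markers summed to 11.64, 258.64 and 14.04 FPKM in LBD29-OE replicates 1, 2 and 3. In Col they summed to 102.02 to 131.81 FPKM, of which RBCS1A alone was at 88.63 to 119.71 FPKM. RBCS1A and PORB were listed as lower in LBD29-OE. In replicate 2 RBCS1A was at 90.99 FPKM, within its Col range. PORB was at 1.27 FPKM there, against 4.13 to 4.49 FPKM in Col. The other 5 were listed as higher, and 0 of them had all LBD29-OE libraries above Col. One of the 4 root hair markers, PRP1, was listed, in the LBD29-OE table, at 10 to 20.64 FPKM in LBD29-OE and 23.98 to 40.58 FPKM in Col.

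The stretch upstream of the 4 MYB-type members is shown because they include the genes with the deepest falls and because letters bound by clock and MYB factors can be read in it. Each sequence is the 250 bases before the annotated gene start in RefSeq's TAIR10.1 assembly, 5′ to 3′ on the gene's strand, at chr1:37872-38121 (minus strand) for LHY, chr2:19245341-19245590 (plus strand) for CCA1, chr5:5692993-5693242 (minus strand) for RVE1 and chr3:2945989-2946238 (plus strand) for RVE8. Capitals mark the G-box CACGTG and the MYB2 recognition core TAACTG, which reads CAGTTA where it lies on the other strand.
LHY: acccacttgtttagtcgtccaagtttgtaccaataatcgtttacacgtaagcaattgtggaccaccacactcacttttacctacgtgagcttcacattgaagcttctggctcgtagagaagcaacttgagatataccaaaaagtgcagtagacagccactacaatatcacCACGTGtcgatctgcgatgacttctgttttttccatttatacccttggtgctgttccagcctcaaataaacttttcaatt
CCA1: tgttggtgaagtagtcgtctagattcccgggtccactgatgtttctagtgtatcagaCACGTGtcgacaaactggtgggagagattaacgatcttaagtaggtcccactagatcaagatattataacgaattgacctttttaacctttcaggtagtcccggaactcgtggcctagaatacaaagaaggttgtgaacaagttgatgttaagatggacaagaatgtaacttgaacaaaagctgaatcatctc
RVE1: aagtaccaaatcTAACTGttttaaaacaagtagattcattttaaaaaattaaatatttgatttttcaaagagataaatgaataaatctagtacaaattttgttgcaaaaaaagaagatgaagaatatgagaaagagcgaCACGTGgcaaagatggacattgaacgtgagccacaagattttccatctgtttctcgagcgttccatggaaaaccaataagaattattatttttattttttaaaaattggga
RVE8: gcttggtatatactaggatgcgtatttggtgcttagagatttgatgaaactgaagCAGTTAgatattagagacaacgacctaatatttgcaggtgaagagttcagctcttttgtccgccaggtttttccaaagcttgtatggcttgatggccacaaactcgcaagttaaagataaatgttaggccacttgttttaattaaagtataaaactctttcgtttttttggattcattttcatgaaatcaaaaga

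The G-box, a core bound by bHLH and bZIP factors, stood 80 bases before the start of LHY, 193 bases before that of CCA1 and 111 bases before that of RVE1. The MYB2 core stood 238 bases before the start of RVE1 and 195 bases before that of RVE8. The evening element AAAATATCT and the CCA1-binding site AAAAATCT, both bound by LHY, CCA1 and RVE8, were not in any of the 7 windows, and LNK1, LNK2 and LNK4 held none of the 4 motifs. Over 27443 protein-coding genes, searched on both strands in windows of the same length, 6.49% held the G-box, 8.12% the MYB2 core, 6.69% the CCA1-binding site and 2.36% the evening element. The G-box was also in 4 of the 8 other RVE and LNK family genes (RVE2, RVE3, RVE5 and LNK3), of which all but LNK3 were in no table. In 500 bases the shares were 9.35%, 16.1%, 12.5% and 4.44%, and the members gained 1 match, a CCA1-binding site 429 bases before LHY. No matches overlapped in the members. A match is a run of letters and not a measured binding site.

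In MYB2-SRDX roots both core dawn repressors were close to the bottom of the scale, at about 1% of their Col level. LHY (gene at chromosome 1, 33365 to 37871, minus strand) was at 0.4, 0.7 and 0.51 FPKM in MYB2-SRDX libraries 1, 2 and 3, against 63.08, 62.28 and 55.96 FPKM in Col replicates 1, 2 and 3. CCA1 (chromosome 2, 19245591 to 19248915, plus strand) was at 0.28, 0.38 and 0.38 FPKM in the MYB2-SRDX libraries, against 29, 32.71 and 33.49 FPKM in Col. For both genes all 3 MYB2-SRDX libraries lay below 1 FPKM and all 3 Col libraries lay near or above 29 FPKM, with no overlap. The log2 ratio of the mean FPKM was -6.82 for LHY, which stood at 0.888% of Col, and -6.52 for CCA1, which stood at 1.09% of Col. Among 1045 genes in the table, these falls ranked 3 and 4 by the authors' log2 value, and among the 273 with at least 10 FPKM in one group they ranked 1 and 2. LHY exceeded CCA1 in every library. The ratio of LHY to CCA1 was 1.43, 1.84 and 1.34 in the MYB2-SRDX libraries and 2.18, 1.90 and 1.67 in the Col replicates, so the ranges overlap.

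RVE8, the evening-gene activator (chromosome 3, 2946239 to 2949017, plus strand), was at 3.52, 3.08 and 3.27 FPKM in MYB2-SRDX, against 22.71, 23.8 and 25.36 FPKM in Col. All MYB2-SRDX libraries lay at about 1 in 7 of the Col level (log2 -2.86, 13.7% of Col). RVE1, the auxin-linked member (chromosome 5, 5690225 to 5692992, minus strand), was the most abundant of the 7 genes in MYB2-SRDX. It was at 5.48, 6.39 and 7.69 FPKM there, against 16.66, 21.31 and 24.18 FPKM in Col (log2 -1.67, 31.5% of Col). The lowest Col replicate still lay well above the highest MYB2-SRDX library.

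Of the LNK coactivators, LNK2 had the deepest fall. LNK2 (chromosome 3, 20175370 to 20179070, minus strand) was at 1.01, 1.36 and 1.37 FPKM in MYB2-SRDX, against 19.55, 28.81 and 29.47 FPKM in Col (log2 -4.38, 4.81% of Col). Among genes with at least 10 FPKM it ranked directly after LHY and CCA1. LNK4 (chromosome 5, 2167120 to 2169437, plus strand) was at 0.64, 0.48 and 0.82 FPKM in MYB2-SRDX, against 3.78, 3.57 and 4.21 FPKM in Col (log2 -2.58, 16.8% of Col). LNK1 (chromosome 5, 25672466 to 25676823, minus strand) was at 2.33, 3.2 and 2.47 FPKM in MYB2-SRDX, against 8.73, 7.1 and 7.67 FPKM in Col (log2 -1.55, 34.0% of Col). For all 3 LNK genes the groups were apart. LNK1 had the smallest fall of the 7 members and was the one nearest to the 2-fold limit of the table.

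**Figure D1:**
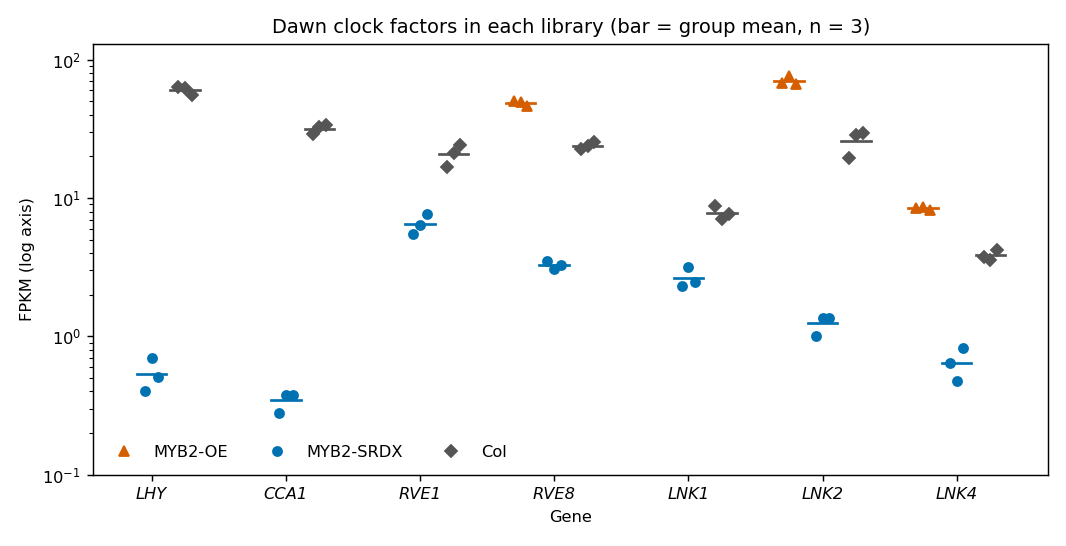
FPKM of the 7 dawn genes in each library (log axis), with 3 libraries per genotype and a bar at each mean; a genotype is drawn only where its table lists the gene. All MYB2-SRDX points lie below all Col points for the 7 genes, with LHY and CCA1 under 1 FPKM, and the MYB2-OE points of RVE8, LNK2 and LNK4 lie above Col.

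The 7 members were thus all lower in MYB2-SRDX, in a table where 492 of 1045 genes (47.1%) were listed as lower. By mean FPKM all 7 were at least 2-fold lower, as were 46.8% of the genes listed. In all 7 the MYB2-SRDX libraries were below the lowest Col replicate, as in 41.8% of the genes listed. Since being listed chose the members, these counts describe the choice and carry no test. The median log2 ratio was -2.86 over the 7 members and -1.49 over the genes listed as lower that had a mean above 0 FPKM. Over all genes listed it was 1.02, which reflects only that the table holds no gene under 2-fold and slightly more higher than lower genes. The authors' own log2 values lay close by, with -6.78 for LHY, -6.60 for CCA1, -4.35 for LNK2 and -1.54 for LNK1 in the authors' deposited table. By median the members varied less between libraries than the genes listed, but these sets were not matched for level. Their coefficient of variation (SD over mean) had a median of 17.0% in MYB2-SRDX (6.71% to 28.3%) and 8.47% in Col (5.56% to 21.4%). Over the genes listed as lower the median was 32.0% in MYB2-SRDX and 18.6% in Col. Over all genes listed it was 39.4% in MYB2-SRDX and 22.9% in Col.

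The falls were unequal, so the order of the 7 levels differed between genotypes. In MYB2-SRDX the order was RVE1, RVE8, LNK1, LNK2, LNK4, LHY and CCA1, where RVE8 and LNK1, and also LNK4 and LHY, had overlapping libraries. In Col the order was LHY first, at 60.4 ± 3.90 FPKM, then CCA1 at 31.7 ± 2.40, LNK2 at 25.9 ± 5.55, RVE8 at 24.0 ± 1.33, RVE1 at 20.7 ± 3.79, LNK1 at 7.83 ± 0.827 and LNK4 at 3.85 ± 0.326 FPKM (SD, n = 3). The 4 genes from CCA1 to RVE1 each overlapped their neighbour in that order. By mean FPKM, the 2 genes at the bottom in MYB2-SRDX were thus the 2 at the top in Col, with the overlaps given above.

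MYB2-SRDX library 1 was the one with seed storage RNA and the highest RBCS1B and RBCS2B levels. Without it the log2 ratios were -6.64 for LHY, -6.38 for CCA1, -4.25 for LNK2 and -2.92 for RVE8. They were -2.57 for LNK4, -1.56 for RVE1 and -1.47 for LNK1. All 7 genes remained at least 2-fold lower without it. The RVE1 gene shares 225 bases with AT5G17305 and LNK1 shares 245 bases with AT5G64160, both on the opposite strand. LNK2 shares 93 bases with AT3G54490 and 266 with the non-coding AT3G08405 on the opposite strand, and LNK4 shares 13 bases with AT5G06990 on its own strand. None of these neighbours was listed in any table, and the sources used here do not give whether reads were counted by strand.

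In MYB2-OE roots, 3 of the members, the evening-gene activator RVE8 and the coactivators LNK2 and LNK4, were listed as higher than Col. RVE8 was at 50.1, 49.71 and 46.01 FPKM in MYB2-OE, against 22.71, 23.8 and 25.36 FPKM in Col (2.03-fold, log2 1.02). LNK2 was at 67.73, 76.31 and 66.69 FPKM in MYB2-OE, against 19.55, 28.81 and 29.47 FPKM in Col (2.71-fold, log2 1.44). LNK4 was at 8.44, 8.68 and 8.15 FPKM in MYB2-OE, against 3.78, 3.57 and 4.21 FPKM in Col (2.19-fold, log2 1.13). Every MYB2-OE library lay above every Col library for the 3 genes. The coefficient of variation had a median of 4.64% over the 3 genes in MYB2-OE. It was 22.9% over the genes listed as higher and 28.8% over all genes listed for that line.

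For MYB2-OE, 52.4% of 1271 genes were listed as higher, 52.1% were at least 2-fold higher by mean FPKM, and 49.1% had all MYB2-OE libraries above all Col libraries. The 3 increases were modest among them: LNK2 ranked 385, LNK4 562 and RVE8 657 by size of increase. Their median log2 ratio was 1.13, against 1.56 over the genes listed as higher. RVE8 stood just inside the 2-fold limit. Without Col replicate 1 its log2 ratio was 0.98 and without MYB2-OE replicate 1 it was 0.998, both just under 2-fold. Without MYB2-OE replicate 2, the library with LBD29 RNA, the log2 ratios were 1.00 for RVE8, 1.37 for LNK2 and 1.11 for LNK4, all at least 2-fold. LHY, CCA1, RVE1 and LNK1 were not listed for MYB2-OE, so no level of theirs in that line was analysed here.

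The 2 MYB2 lines thus stood on opposite sides of Col for RVE8, LNK2 and LNK4. Of 299 genes in both MYB2 tables, 37.5% were likewise listed as higher in MYB2-OE and lower in MYB2-SRDX. In MYB2-OE roots RVE8 averaged 48.6 ± 2.26 FPKM, against 3.29 ± 0.221 FPKM in MYB2-SRDX roots, a 14.8-fold difference between the lines. LNK2 averaged 70.2 ± 5.28 FPKM in MYB2-OE roots, against 1.25 ± 0.205 FPKM in MYB2-SRDX roots, or 56.3-fold, and LNK4 averaged 8.42 ± 0.265 FPKM in MYB2-OE roots, against 0.647 ± 0.170 FPKM in MYB2-SRDX roots, or 13.0-fold (SD, n = 3 each). LNK2 had both the larger rise and the larger fall of the 3 genes. Both lines held MYB2 transcript at a like level, with overlapping libraries.

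**Figure D2:**
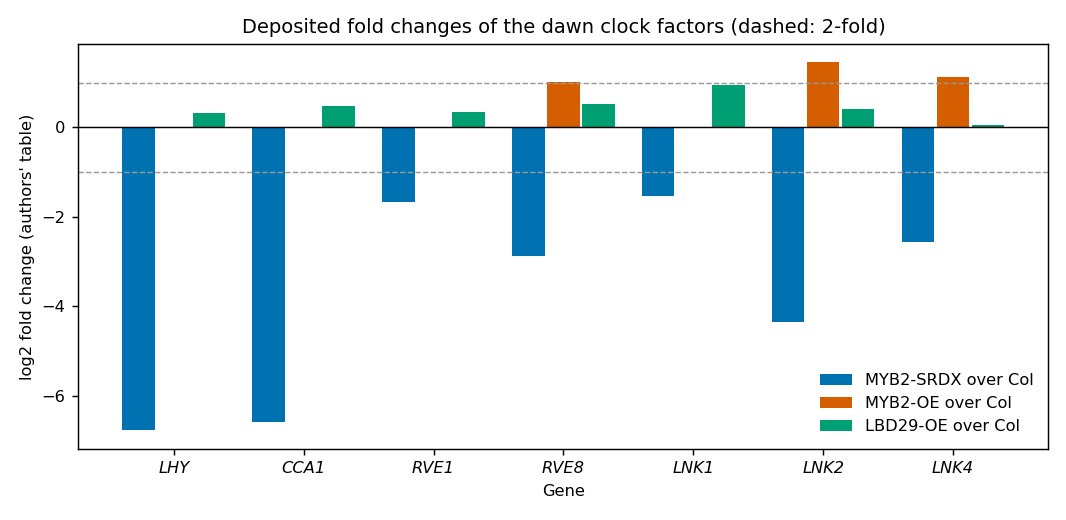
Authors' deposited log2 fold change over Col (bars, from 0) of each dawn gene in MYB2-SRDX, MYB2-OE and LBD29-OE, with dashed lines at 2-fold; a bar is drawn only where a table gives a value. In the authors' deposited table the MYB2-SRDX bars run from -6.78 for LHY to -1.54 for LNK1, the 3 MYB2-OE bars stand at or above the 2-fold line, and the 7 LBD29-OE bars lie between 0.047 and 0.94, below it.

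No member was listed in the LBD29-OE table, and no FPKM of theirs in LBD29-OE libraries was analysed here. The MYB2 tables, however, also carry the authors' LBD29-OE log2 value for most genes they list, the 7 members among them. In the authors' deposited table LNK1 had the highest, at 0.94 (1.92-fold), just under the 2-fold limit. RVE8 had 0.53, CCA1 0.48, LNK2 0.41, LHY 0.33 and RVE1 0.33 in the authors' deposited table, which is 1.26-fold to 1.44-fold. LNK4, at 0.047 (1.03-fold, Q = 0.362), had the one Q value above 0.05 in the authors' deposited table. All 7 values were thus above 0 and under 2-fold. Of 1928 genes with an LBD29-OE value in a MYB2 table, 784 (40.7%) were above 0, as were 230 (46.7%) of the 492 genes listed as lower in MYB2-SRDX, and 536 of the 1928 were at least 2-fold apart. Values above 0 with Q under 0.05 made up 25.9% of the 1928 genes and 33.1% of the 492 genes, and 6 of the 7 members had one. The median log2 value was 0.41 over the members, -0.16 over the 1928 genes and -0.049 over the 492 genes. The authors' Q values reach 1.39e-59 for the 1.26-fold difference of LHY in the authors' deposited table, and how they weigh the spread between libraries is not given in the sources used here.

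**Figure D3:**
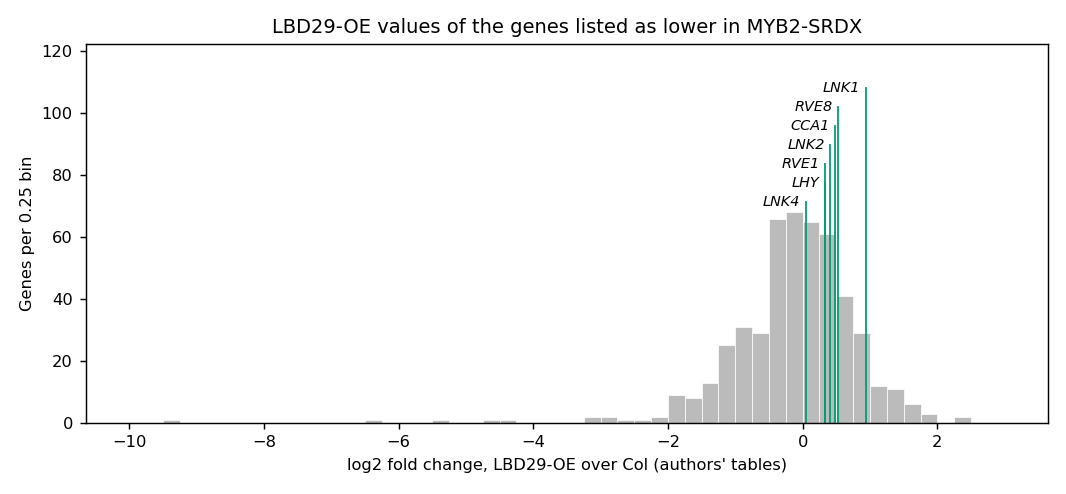
Authors' deposited log2 fold change of LBD29-OE over Col for the 492 genes listed as lower in MYB2-SRDX (grey, genes per bin of 0.25), with a green line at the value of each dawn gene. The 7 lines lie between 0.047 and 0.94, above the median of -0.049 of the grey genes.

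Of 8 other members of the RVE and LNK families, LNK3, the closest relative of LNK4, was the one listed in both MYB2 tables. LNK3 was at 8.2, 4.7 and 6.05 FPKM in MYB2-OE libraries and 0.23, 0.16 and 0.27 FPKM in those of MYB2-SRDX, against 2.47, 2.13 and 1.82 FPKM in Col. It thus lay above Col in MYB2-OE (log2 1.56) and below it in MYB2-SRDX (log2 -3.28), with no overlap, as LNK2 and LNK4 did. RVE7 was listed as higher in LBD29-OE, with 17.99, 21.13 and 9.46 FPKM there against 6.06, 6.67 and 5.52 FPKM in Col. A near copy of it, RVE7-like (AT3G10113), was listed as higher in MYB2-SRDX and LBD29-OE on 1 library each, at 1.08 and 2.31 FPKM, with every other library at 0. Reads of such near copies may be split between them, so both are uncertain. RVE2 to RVE6 were in no table.

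Of 17 day and evening clock genes, 8 were in at least 1 table. PRR7, TOC1, ELF3, LUX, BOA, GI, ZTL, LKP2 and CHE were in no table. Listed were 5 for MYB2-SRDX, 5 for MYB2-OE and 8 for LBD29-OE, and each of these was apart from Col in all libraries. So were 74.8% of all genes listed for MYB2-SRDX, 91.7% of those for MYB2-OE and 85.2% of those for LBD29-OE. In MYB2-SRDX 4 were higher and 1 lower, where 52.9% of all genes listed were higher. In MYB2-OE 1 was higher and 4 lower, where 47.6% of all genes listed were lower, and in LBD29-OE 1 was higher and 7 lower, where 58.2% of all 802 genes listed were lower and 41.8% higher. ELF4, a subunit of the evening complex, was at 243.86, 215.15 and 215.93 FPKM in MYB2-SRDX, at 42.36, 33.03 and 40.01 FPKM in MYB2-OE and at 39.16, 38.01 and 30.18 FPKM in LBD29-OE, against 83.77, 79.02 and 125.32 FPKM in Col. ELF4 was therefore above Col in MYB2-SRDX and below Col in both overexpressors, whose libraries overlap each other. Any link of ELF4 to the levels of LHY and CCA1 was not tested.

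JMJD5, an evening-phased histone demethylase, and COR27 and COR28, a pair of cold-regulated clock repressors, likewise lay above Col in MYB2-SRDX and below it in both overexpressors. JMJD5 averaged 42.3 ± 0.443 FPKM in MYB2-SRDX, 5.47 ± 0.574 FPKM in MYB2-OE and 4.98 ± 0.274 FPKM in LBD29-OE, against 20.2 ± 6.95 FPKM in Col (SD, n = 3 each). COR27 averaged 12.1 ± 0.309 FPKM in MYB2-SRDX, 1.46 ± 0.370 FPKM in MYB2-OE and 1.04 ± 0.0451 FPKM in LBD29-OE, against 5.39 ± 2.20 FPKM in Col. COR28 was at 7.9, 16.04 and 12.7 FPKM in MYB2-SRDX, at 2.04, 1.87 and 2.4 FPKM in MYB2-OE and at 1.69, 2 and 1.55 FPKM in LBD29-OE, against 3.7, 4.59 and 7.04 FPKM in Col. The MYB2-OE and LBD29-OE libraries overlapped for JMJD5 and COR28. PRR9, the morning-phased pseudo-response regulator, lay on the other sides of Col, below it in MYB2-SRDX and above it in both overexpressors. It was at 0.26, 0.45 and 0.3 FPKM in MYB2-SRDX, at 3.33, 1.54 and 1.73 FPKM in MYB2-OE and at 2.75, 3.25 and 1.67 FPKM in LBD29-OE, against 0.92, 0.94 and 0.91 FPKM in Col. Without MYB2-OE replicate 1 its log2 ratio in that line was 0.82, against 1.25 with it.

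**Figure D4:**
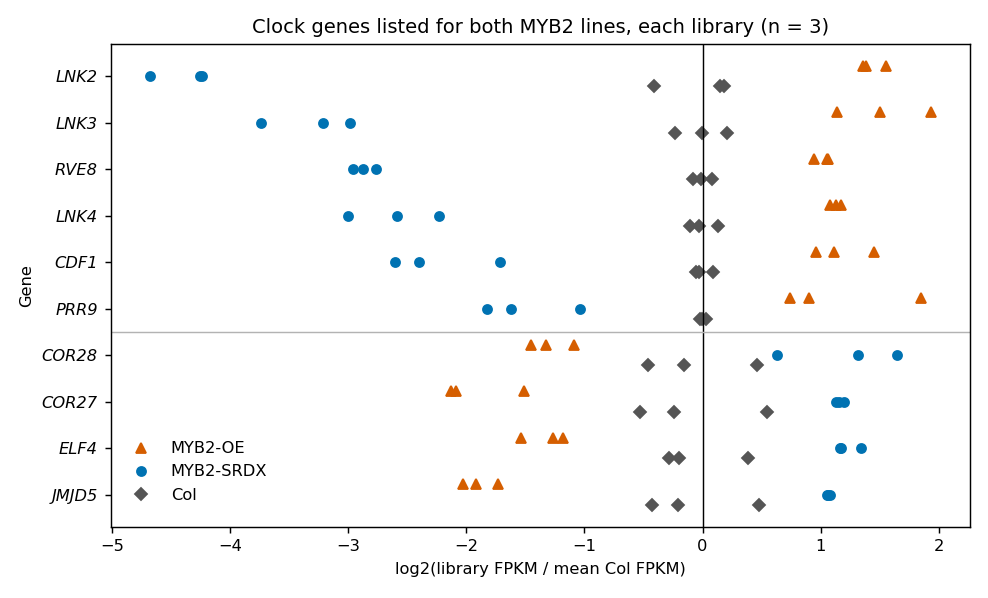
Log2 of each library's FPKM over the mean Col FPKM, for 10 clock and output genes listed for both MYB2 lines (triangles, MYB2-OE; circles, MYB2-SRDX; diamonds, Col; 3 libraries each). LNK2, LNK3, RVE8, LNK4, CDF1 and PRR9 lie right of Col in MYB2-OE and left of it in MYB2-SRDX, while COR28, COR27, ELF4 and JMJD5 lie left of Col in MYB2-OE and right of it in MYB2-SRDX.

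In LBD29-OE, PRR5, PRR3 and the blue-light receptor FKF1 were also listed as lower. PRR5 was at 2.99, 4.4 and 3.61 FPKM in LBD29-OE, against 6.81, 7.51 and 12.67 FPKM in Col. PRR3 was at 0.54 to 0.69 FPKM in LBD29-OE, against 0.91 to 2.01 FPKM in Col, and FKF1 was at 2.09 to 2.43 FPKM in LBD29-OE, against 3.82 to 5.56 FPKM in Col. These 3 genes, ELF4, JMJD5, COR27 and COR28 all had their highest wild-type value in Col replicate 3. Without that replicate the log2 ratio in LBD29-OE was -0.97 for PRR5, -0.88 for PRR3 and -0.88 for FKF1, and that of COR28 in MYB2-OE was -0.98, all under 2-fold. Without LBD29-OE replicate 2, the one with the largest green-tissue sum, FKF1 was under 2-fold, at -0.95. The other 7 listed clock genes of that line were not. Without Col replicate 1, the log2 ratio in MYB2-SRDX was 0.89 for JMJD5 and 0.96 for COR27, and without Col replicate 2 that of JMJD5 was 0.97. Among the dawn genes Col replicate 3 had the highest wild-type value for CCA1, RVE1, RVE8, LNK2 and LNK4, the lowest for LHY and the middle one for LNK1.

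Of 16 genes of clock output, 4 were listed for MYB2-SRDX, 3 for MYB2-OE and none for LBD29-OE. CDF1, a cycling DOF factor that delays flowering, was at 3.32, 2.63 and 2.37 FPKM in MYB2-OE libraries and 0.37, 0.23 and 0.2 FPKM in those of MYB2-SRDX, against 1.17, 1.19 and 1.29 FPKM in Col. It thus lay on the same sides of Col as LNK2, RVE8 and LNK4. Its relative CDF3 averaged 3.55 ± 0.455 FPKM in MYB2-SRDX, against 14.0 ± 1.19 FPKM in Col, and the cold-response factor DREB1C averaged 0.307 ± 0.0289 FPKM in MYB2-SRDX, against 1.36 ± 0.233 FPKM in Col (SD, n = 3 each). PIF5, a bHLH factor of growth in the dark, was higher in MYB2-SRDX, with libraries of 0.82, 1.96 and 1.69 FPKM there against 0.64, 0.64 and 0.61 FPKM in Col (log2 1.24, or 0.99 without library 2). YUC8, an auxin synthesis enzyme known as a target of RVE1 in seedlings, was listed for MYB2-OE alone, at 8.56, 6.46 and 9.68 FPKM in MYB2-OE against 2.74, 2.74 and 2.52 FPKM in Col. The evening-phased catalase CAT3 was lower in MYB2-OE, with libraries of 85.57, 200.13 and 92.86 FPKM there against 368.35, 425.7 and 504.76 FPKM in Col.

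The tables also carry KEGG pathway labels, and under the plant circadian rhythm label 25 genes were listed for MYB2-SRDX, of which 4 were higher and 21 lower, beside 47.1% lower over all genes listed. LHY, CCA1, RVE1 and RVE8 were 4 of the 25, and the LNK genes carried no such label. In MYB2-OE 16 genes had that label, with 10 higher, RVE8 among them, and 6 lower, and in LBD29-OE 10 had it, with 6 higher, 4 lower and no member. Those splits stand beside 52.4% higher over all genes listed for MYB2-OE and 41.8% for LBD29-OE, and on so few genes nothing is read from them.

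CCA1 was the gene most like LHY among 1044 others in the MYB2-SRDX table (distance 0.85). Likeness was the Euclidean distance between profiles of log2 FPKM relative to Col over 6 libraries. With profiles set relative to Col, it mainly follows the size of the fall, which was known when the members were chosen. LNK2 ranked 3 (distance 4.06), RVE8 15 (6.56), LNK4 36 (7.28), RVE1 136 (8.57) and LNK1 167 (8.78). Of genes that carry a symbol and reach 10 FPKM in one group, the 5 nearest non-members were EXLB1, an expansin-like cell wall gene (5.41), QQS, a regulator of starch and protein content (6.83), the small heat shock gene HSP17.4 (6.84), SULTR3;5, a sulfate transporter family gene (6.92), and the glutathione transferase ATGSTF13 (7.06). EXLB1 averaged 0.853 ± 0.112 FPKM in MYB2-SRDX and 10.7 ± 3.13 FPKM in Col, and QQS averaged 1.83 ± 0.193 FPKM in MYB2-SRDX and 12.2 ± 2.76 FPKM in Col (SD, n = 3 each). These genes had falls shallower than those of LHY and CCA1, as the ranks given above already state.

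Around LNK2, over 9 libraries and 298 other genes, EXLB1 ranked 2 (distance 2.17), RVE8 3 (2.69) and LNK4 9 (3.35). Here too the distance mainly follows the sizes of the rise and the fall. The other named neighbours were the light-harvesting gene LHCB2.1 (2.76), QQS (2.82), the senescence factor NAC6 (AT5G39610, 3.16) and scpl31, a serine carboxypeptidase-like gene (3.42). EXLB1 averaged 45.4 ± 10.4 FPKM in MYB2-OE and NAC6 averaged 17.1 ± 2.15 FPKM in MYB2-OE, against 10.7 ± 3.13 and 4.57 ± 1.82 FPKM in Col. LHCB2.1 is itself one of the green-tissue markers. It was at 8.8, 9.27 and 13.77 FPKM in MYB2-OE libraries and 1.13, 0.17 and 0.21 FPKM in those of MYB2-SRDX, against 5.28, 5.23 and 4.11 FPKM in Col (log2 1.12 in MYB2-OE, or 0.89 without its replicate 3), and its part in the values of the dawn genes was not tested.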

How the data were processed

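The samples were grouped by their genotype labels. Each of 3 deposited tables sets a line beside Col and gives the authors' FPKM of every library, mean FPKM per group, log2 fold change, and P and Q values (p-values and their adjusted form), per the file headers. The genome build was TAIR10, per the submitters' processing notes. No source used here names the aligner, the counting or the test behind the Q values. The largest Q value listed was 0.000999. Column names of MYB2-SRDX show the group but not which sample, so its libraries have no replicate number. FPKM do not give the depth of a library, so no counting interval is given.

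The 7 members and all gene lists were chosen with earlier results of these data known, so no test of them was made and no p-value was computed. From the deposited FPKM, means, SDs and the log2 ratio of group means were computed with no pseudocount (Python 3.11.15, numpy 2.4.6, pandas 2.3.3, matplotlib 3.10.9). Groups were called apart where all libraries of a line lay on one side of all Col libraries. Named genes were the members, all listed genes of the pathway lists, and the 5 symbol-bearing genes reaching 10 FPKM closest to LHY and to LNK2; those profiles were log2((FPKM + 0.1)/(mean Col FPKM + 0.1)). The calculations were tested on simulated data with planted changes well beyond 2-fold and little spread between libraries. That checks the calculations only, and not how they do near the 2-fold limit or at low levels. Alternatives were pseudocounts of 0.1 and 1, medians, the authors' log2 value, a 4-fold limit, a filter of 5 FPKM and leaving out each library. Gene positions and upstream sequence are from TAIR10.1 in RefSeq, since the tables hold no coordinates.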

Additional observations from a re-analysis of the deposited data

Results flagged for a closer look

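Among the dawn genes and the clock, output and marker lists, 11 genes had every library of MYB2-OE on one side of Col and every library of MYB2-SRDX on the other. That was so for 170 (56.9%) of the 299 genes in both MYB2 tables. The differences below are the log2 ratio in MYB2-OE minus that in MYB2-SRDX. Because both lines were set against the same Col libraries, each difference equals the log2 ratio between the 2 lines, and none was tested. Among the dawn genes it was 5.82 for LNK2, 3.88 for RVE8 and 3.70 for LNK4. It was 4.84 for their relative LNK3, 2.71 for PRR9, 3.38 for CDF1 and 4.40 for LHCB2.1. It was negative for the evening genes, at -2.55 for ELF4, -2.95 for JMJD5, -3.04 for COR27 and -2.54 for COR28.

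For 5 genes of the clock lists the libraries of LBD29-OE and MYB2-SRDX also lay on opposite sides of Col, as did those of 96 (42.3%) of the 227 genes in both tables. The log2 ratio in LBD29-OE minus that in MYB2-SRDX was 2.92 for PRR9, -2.65 for ELF4, -3.09 for JMJD5, -3.54 for COR27 and -2.81 for COR28. These differences were not tested either. No dawn gene could enter this comparison, because no FPKM of theirs in LBD29-OE was analysed here.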

How the results depend on the processing

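Over 90 alternatives to the 10 log2 ratios of the members, 0 changed sign and 7 moved by more than the spread between libraries. The count of 7 members at least 2-fold lower in MYB2-SRDX was 7 under every pseudocount, median, authors' log2 value and left-out library, 6 with the filter of 5 FPKM and 5 at 4-fold. The authors' log2 value could give no other count for either MYB2 line, since being listed already required 2-fold by it. With a pseudocount of 1 the log2 ratio was -5.32 for LHY and -4.60 for CCA1, since their MYB2-SRDX levels lie under 1 FPKM. The count of 3 members at least 2-fold higher in MYB2-OE was 1 with a pseudocount of 1 (RVE8 at 0.99 and LNK4 at 0.96) and 0 at 4-fold, and 2 to 3 when 1 library was left out. The count of 3 in opposite directions was likewise 1 with a pseudocount of 1, 0 at 4-fold and 2 to 3 when 1 library was left out. With the filter of 5 FPKM it was 2, where the MYB2-OE count stayed at 3. For LBD29-OE the count was 0 at 2-fold, which restates that all 7 deposited values were under 2-fold. The count of 0 at 4-fold follows from it and is no separate check. The other alternatives could not be run without library values. Of the other named genes, over 387 alternatives to 43 ratios, 0 changed sign and 14 moved by more than the spread. With a pseudocount of 1 the log2 ratio fell under 2-fold for low genes, at -0.52 for PRR9, -0.81 for CDF1 and -0.85 for DREB1C in MYB2-SRDX, 0.73 for PRR9 and 0.77 for CDF1 in MYB2-OE and 0.89 for PRR9 in LBD29-OE, among others. No paired analysis was possible because the results come from no test and the MYB2-SRDX columns carry no replicate number. The tables hold called genes only and no depth, so levels of unlisted genes and the precision of values under 1 FPKM are unknown.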
